A study of Mus musculus with 4 samples.

Results

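The 10 genes described here encode ligands, receptors, latency proteins and an antagonist of TGF-beta and activin signalling: Tgfb1, Tgfb2, Tgfb3, Inhba, Tgfbr1, Tgfbr2, Tgfbr3, Ltbp1, Ltbp2 and Fst. They were taken as a named list, matched by gene symbol, and all 10 were found among the 32285 genes of the deposited matrices. TGF-beta ligands are secreted in a latent complex with their own propeptide, which latent TGF-beta binding proteins tether to the matrix. Released ligand binds the type II receptor, which recruits the type I receptor, and the signal passes through SMAD2 and SMAD3 to genes such as those for matrix proteins and their regulators. Activin A, a dimer of the Inhba product, signals through its own receptors to the same SMAD proteins and is bound and neutralised by follistatin, the Fst product. In skin and tendon these ligands are known for matrix deposition and scar formation after injury.

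The samples came from FVB/NJ wild-type mice, 8 weeks old, labelled as pooled males and females. One library was made from unamputated mid-digit tissue and 1 each at 12, 17 and 28 days post amputation (dpa) through the second phalanx (P2), a level that does not regenerate. Cells were released by trypsin and collagenase I, sorted as live by exclusion of propidium iodide, and read with 10x Chromium 3′ v3 chemistry, in which each unique molecular identifier (UMI) marks 1 captured RNA. With 1 library at each time there was no replicate and no test between times was possible. Every interval below covers counting error only, and differences between mice, digits or preparations cannot be told apart from differences between times.

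After filtering, 35046 cells remained, 10442 from the unamputated digit and 6496, 7935 and 10173 at 12, 17 and 28 dpa. Their median depth was 11636, 9543, 8511 and 6661 UMIs per cell in the same order. Joint clustering, from which the 10 genes and 34 other pathway genes were left out, gave 26 clusters, and fixed markers named 22 of them into 17 classes. The 4 unnamed clusters held 13.2% of cells. The libraries did not match in sex: by Xist and Y-linked genes, 54.2% of 12 dpa cells were called female and 0 male, while 77.9%, 58.4% and 47.2% of unamputated, 17 and 28 dpa cells were called male with 1 female cell in all. At 12 dpa, sex and time after amputation therefore cannot be told apart. Pairs of libraries shared between 19 and 87 cell barcodes.

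The fibroblast-like class held 706, 358, 1457 and 2135 cells in the unamputated, 12, 17 and 28 dpa libraries. It joined a cluster led by Ccn3, Sema3e, Scara5, Clec3b and Pi16 with one led by C4b, Cyp2f2 and Gdf10, and the second held 253, 13, 542 and 542 of those cells. Levels are given as CPM, the gene's UMIs out of every 1000000 UMIs of the class in that library. A gene was called higher or lower when log2(CPM + 1) differed by at least 1, a 2-fold difference, and only genes whose 4 libraries averaged 5 CPM or more were considered. This is a rule of size and no test. All 10 members passed that filter in fibroblast-like cells.

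In fibroblast-like cells at 28 dpa, Inhba was 2.35-fold higher than in the unamputated library (95% counting interval 2.17 to 2.54) and Ltbp2 3.19-fold higher (2.90 to 3.51). Tgfb3 was 2.11-fold lower (1.94 to 2.29) in the same cells. At 12 dpa Ltbp1 was 3.11-fold lower (2.85 to 3.41). No other member passed the 2-fold rule in these cells at any time. Most of the Inhba and Ltbp2 UMIs that fibroblast-like cells held at 28 dpa lay in 1 finer cluster of them, which held 7 cells before amputation.

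The sequences just ahead of Inhba and Ltbp2 are shown because these are the 2 members called higher at 28 dpa in fibroblast-like cells. Each is 200 bases, from 250 to 51 bases before the RefSeq transcription start, GRCm38.p6, read 5′ to 3′ on the gene's own strand. Capitals mark CAGAC on either strand (GTCTG when it lies on the other strand), the core letters of a SMAD binding element. The Inhba window is chr13:16011601-16011800, plus strand, ahead of the gene body at chr13:16011851-16031621, and the Ltbp2 window is chr12:84876542-84876741, minus strand, ahead of chr12:84783212-84876532 (gene bodies from GENCODE M21).
Inhba: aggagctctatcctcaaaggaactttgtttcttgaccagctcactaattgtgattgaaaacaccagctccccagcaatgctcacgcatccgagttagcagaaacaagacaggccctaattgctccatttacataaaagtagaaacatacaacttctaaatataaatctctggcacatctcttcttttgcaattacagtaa
Ltbp2: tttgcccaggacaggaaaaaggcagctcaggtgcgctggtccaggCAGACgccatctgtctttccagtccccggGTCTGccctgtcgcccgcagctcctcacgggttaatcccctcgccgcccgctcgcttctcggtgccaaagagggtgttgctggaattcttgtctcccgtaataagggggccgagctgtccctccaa

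The Ltbp2 window held 2 CAGAC matches, 1 on each strand, and the Inhba window held 0. Neither held the AP-1 letters TGANTCA on either strand. Of 32851 RefSeq windows of the same length, 35.8% held CAGAC and 5.57% held TGANTCA, so such matches are common and the difference between the 2 windows is a description of letters only. RefSeq windows were found for 7 of the 10 members, and Tgfb3, Tgfbr3 and Fst had none in the table.

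The 10 genes differed first in which cells held them. The 4 ligand genes differed in the classes where they stood highest. Tgfb1 (chr7:25687002-25705077, plus strand), the ligand best known from immune cells and platelets, had its highest means over libraries in T or NK-like cells, 251 CPM (range over libraries 198 to 380), and B-like cells, 233 CPM (214 to 269), whose ranges overlap. In macrophage-like cells Tgfb1 was 202, 195, 193 and 197 CPM in the unamputated, 12, 17 and 28 dpa libraries, a spread no wider than the counting intervals of these 4 values. Lymphatic endothelial-like cells had a mean of 190 CPM (170 to 211), overlapping macrophage-like cells. Osteoblast-like (126) and vascular endothelial-like cells (117) had means above osteoclast-like (112) and neutrophil-like cells (91.9), and neighbours in this order overlap in range. Tgfb1 was also read in the other stromal classes at lower means.

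Tgfb2 (chr1:186622792-186705989, minus strand) had its highest means in osteoblast-like (260 CPM), pericyte-like (248), tenocyte-like (247), smooth muscle-like (222) and fibroblast-like cells (193), and each of these ranges over libraries overlaps the next. In macrophage-like cells it stayed between 2.37 and 9.26 CPM. Tgfb3 (chr12:86056745-86079041, minus strand) stood highest in tenocyte-like cells, with 163, 164, 110 and 114 CPM, and its lowest tenocyte-like library was above the highest fibroblast-like one, 96.6 CPM. Fibroblast-like, smooth muscle-like, osteoblast-like and pericyte-like cells followed with means between 72.6 and 79.0 CPM and overlapping ranges. Tgfb3 was near the floor in macrophage-like cells, 0.955 to 3.58 CPM.

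For Inhba, tenocyte-like cells held 230, 160, 377 and 280 CPM in the unamputated, 12, 17 and 28 dpa libraries. The lowest of these was above every library of smooth muscle-like cells, the next class in the order, at 97.4 to 109 CPM, and above the 139 CPM of fibroblast-like cells at 28 dpa. After each cell was thinned to 2000 UMIs, 21.2%, 16.4%, 28.9% and 27.9% of tenocyte-like cells still had an Inhba UMI, against 8.14%, 8.76%, 7.44% and 14.7% of fibroblast-like cells. T or NK-like cells, which should lack the gene, held 1, 2, 0 and 0 Inhba UMIs in the same libraries, and 0%, 0.725%, 0% and 0% of them had one after thinning. The fibroblast-like share was above that background in each library.

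Of the receptor genes, Tgfbr1 (chr4:47353222-47414931, plus strand), the type I receptor kinase, was highest in osteoclast-like cells (mean 293 CPM, range 206 to 451) and macrophage-like cells (269, 210 to 362), which overlap. Tgfbr2 (chr9:116084293-116175360, minus strand), the type II receptor that binds the ligand, was highest in lymphatic endothelial-like cells, 634 CPM unamputated and 491 CPM at 12 dpa, where the later libraries had fewer than 50 such cells. That range lies above the next classes, B-like (298 to 387 CPM) and fibroblast-like cells (309 to 365 CPM), which overlap each other. Tgfbr3 (chr5:107106570-107289629, minus strand), the co-receptor betaglycan that presents TGF-beta2, was highest in Schwann-like cells (407, 295, 971 and 378 CPM), then in fibroblast-like and vascular endothelial-like cells (320, 171, 448 and 382 CPM). The 17 dpa Schwann-like value, from 112 cells, stands apart from the other 3, and the ranges of these 3 classes overlap. Tgfbr3 was under 8 CPM in macrophage-like cells in every library, where both kinase receptors were above 120 CPM.

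Both latency genes were highest outside the blood-derived cells. Ltbp1 (chr17:75005568-75392512, plus strand), which tethers latent TGF-beta to matrix, was highest in the unnamed cluster led by Hcn4, Msln and Krt19 (mean 501 CPM) and in smooth muscle-like cells, 468, 302, 615 and 539 CPM. Fibroblast-like cells followed with overlapping values. Ltbp2, a family member that binds elastic fibres and does not bind latent TGF-beta, was largely limited to tenocyte-like cells (99.3, 111, 147 and 147 CPM), the Hcn4 and Msln cluster, fibroblast-like cells and osteoblast-like cells. The next cluster in the order had a mean of 9.04 CPM.

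Fst (chr13:114452290-114458951, minus strand), the activin antagonist, was highest in Schwann-like cells. They held 640, 572, 275 and 407 CPM, and the lowest of these exceeded the highest library of the next class, osteoblast-like cells (254, 137, 130 and 211 CPM). Pericyte-like cells held 160, 38.2, 228.3 and 233 CPM, with 12 dpa apart from the other 3 libraries. In tenocyte-like cells, where Inhba was highest, Fst was between 9.75 and 21.8 CPM. In Schwann-like cells, where Fst was highest, Inhba was between 0.564 and 2.31 CPM.

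**Figure D1:**
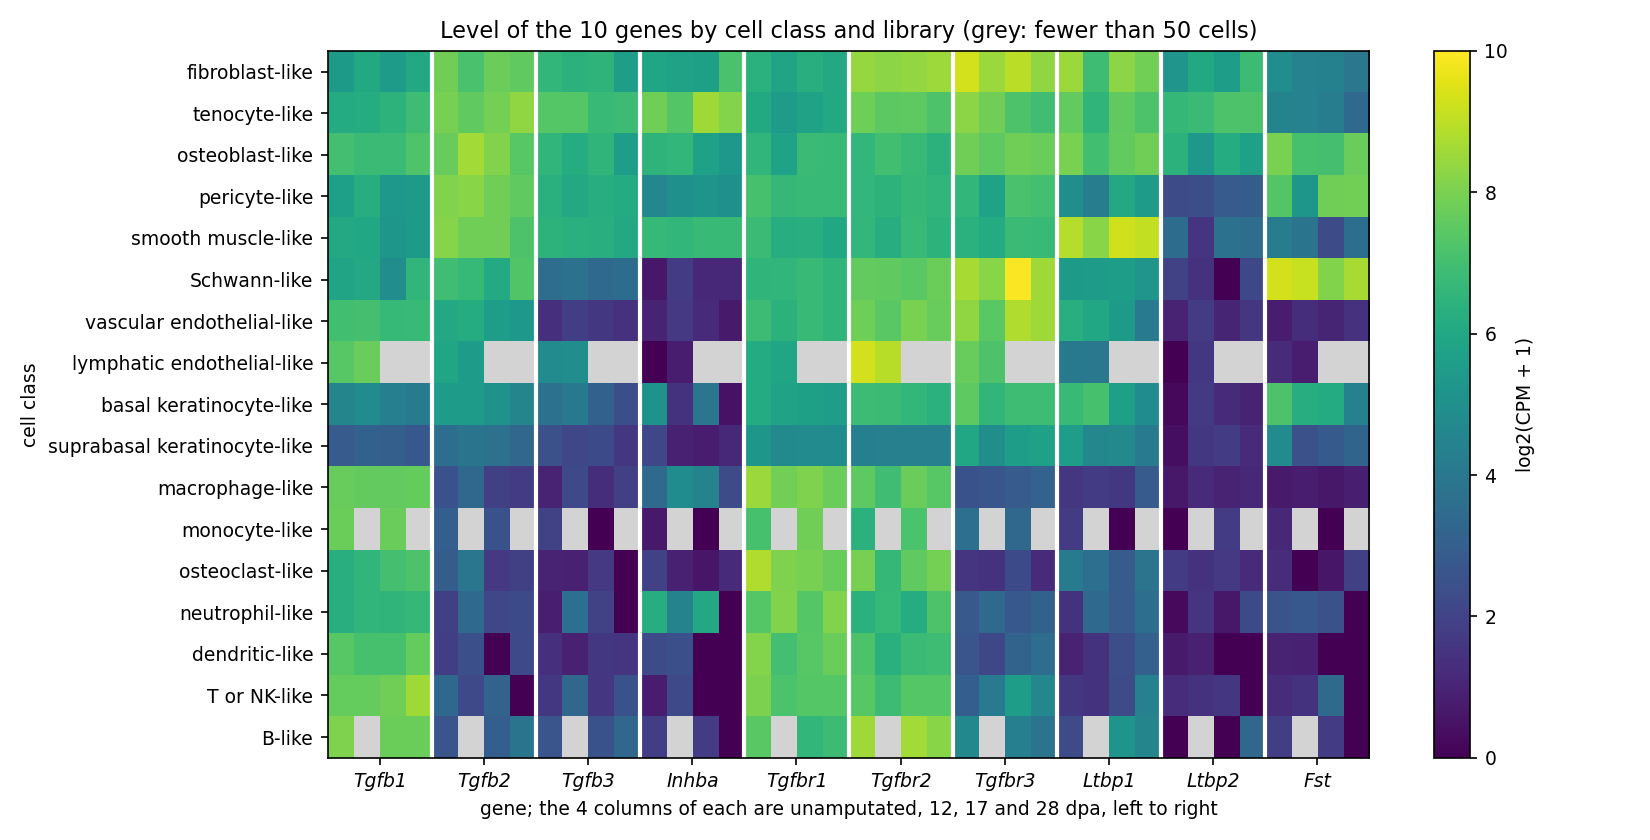
Level of each of the 10 genes as log2(CPM + 1), colour scale from 0 to 10, in 17 marker-named cell classes (rows), with 4 columns per gene for the unamputated, 12, 17 and 28 dpa libraries; grey marks a class with fewer than 50 cells in that library. Tgfb1 and Tgfbr1 are bright in the blood-derived rows at the bottom, Tgfb2, Tgfb3 and Ltbp2 in the stromal rows at the top, and Fst in Schwann-like, osteoblast-like and pericyte-like cells.

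Across 74 class-by-library units and 11870 genes, the genes whose levels followed each member most closely by Pearson correlation of log2 levels were as follows, given as a description because units of 1 library share its depth and preparation. Tgfb2 was closest to Serpinh1 (0.939), the collagen chaperone, then Cald1 and Parva. Tgfb3 was closest to Dkk3 (0.901), Kirrel and Cacna2d1. Inhba was closest to Tbx18 (0.820), Podn and Scarf2, and Ltbp2 to Ccn5 (0.900), Loxl1 and Fam180a. Ltbp1 was closest to Podxl2 (0.860), Evc and Phlda3. Tgfbr3 was closest to Nedd4 and Parva, both 0.915, and Tead1, so Parva stood near both Tgfb2 and its co-receptor gene. Tgfb1 followed Crlf2 at 0.859 and St3gal1 at 0.849, and Tgfbr1 was closest to Osbpl8 (0.849), B2m and H2-Q7. Tgfbr2 had the weakest best match, Snx9 at 0.777, followed by Syne3 and Gm28875. Fst was closest to Gli3 (0.833), Adgrl3 and Eda. Among the members themselves, Tgfb2 followed Tgfb3 at 0.867, Tgfbr3 at 0.823 and Ltbp1 at 0.821, Inhba followed Tgfb3 at 0.760 and Ltbp2 at 0.724, and the lowest values were those of Tgfbr1 with Tgfbr3 (-0.646) and with Ltbp1 (-0.554).

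The first comparison set fibroblast-like cells at 12 dpa beside the unamputated library. Of the 10 members, 0 were called higher, where 0.715% of 10215 genes were, and 1 was called lower, where 4.11% of genes were. The called gene was Ltbp1, with 362, 116, 306 and 235 CPM in the unamputated, 12, 17 and 28 dpa libraries. The 12 dpa library was the lowest, and at 17 dpa the level lay 1.18-fold below the unamputated one (1.14 to 1.23). The log2 ratio at 12 dpa was -1.63 (-1.76 to -1.503). Thinned to equal depth, 41.6%, 18.1%, 40.3% and 36.1% of fibroblast-like cells had an Ltbp1 UMI, the same order of libraries.

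Only 13 cells at 12 dpa fell in the C4b and Gdf10 cluster, whose Ltbp1 level was the higher of the 2 fibroblast-like clusters before amputation (476 against 310 CPM). In the Pi16 and Clec3b cluster alone Ltbp1 was 310, 112, 325 and 220 CPM, so 12 dpa was also lowest within that cluster. Ltbp1 at 12 dpa was the lowest of the 4 libraries in tenocyte-like cells as well (195, 92.4, 190 and 145 CPM), and in osteoblast-like cells (255, 123, 190 and 227.5 CPM), smooth muscle-like cells and pericyte-like cells (30.6, 17.4, 64.9 and 44.6 CPM). It was not lowest there in basal keratinocyte-like cells, which held 135 CPM at 12 dpa and 110 CPM unamputated. The 12 dpa library is the one with female cells, and the part of sex in the Ltbp1 difference was not tested.

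Over the 10 members the median log2 ratio at 12 dpa was -0.33, against -0.18 over all genes tested. Of the 10, 8 lay below 0, where 6504 of 10215 genes did. Tgfbr3 was 634, 365, 503 and 325 CPM, and its 12 dpa level was 1.74-fold below the unamputated one (1.65 to 1.83), short of the rule. Tgfb2 was 228.2 CPM unamputated, 139 at 12 dpa and 189 at 28 dpa, and at 12 dpa it was 1.64-fold below the unamputated level (1.505 to 1.78). The 2 genes above 0 were Tgfb1, with 42.8, 66.04, 43.4 and 65.3 CPM, and Ltbp2. Tgfb1 thus had 2 higher libraries, 12 and 28 dpa, at 1.54-fold (1.34 to 1.77) and 1.53-fold (1.39 to 1.68), neither past the rule. Outside the finer Wnt2 and Prelp cluster described below, its 28 dpa log2 ratio was 0.065.

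At 17 dpa fibroblast-like cells were close to the unamputated library for these genes. Of the 10 members, 0 were called higher and 0 lower, where 0.509% and 1.33% of all genes were. The member furthest above was Ltbp2 at a log2 ratio of 0.37, and the furthest below was Fst at -0.50. The Ltbp2 ratio kept its sign in 13 of 15 alternatives and was -0.366 with cells thinned to 2000 UMIs. The median of the 10 members was -0.09, against -0.04 over all genes tested. Fst was 28.5, 20.6, 19.9 and 14.6 CPM in the 4 libraries, lowest at 28 dpa, where it was 1.95-fold below the unamputated level (1.68 to 2.26), just short of the rule.

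At 28 dpa 2 of 10 members were called higher, where 2.35% of all genes were, and 1 lower, where 5.95% of genes were. The median log2 ratio of the members was -0.31, against -0.12 over all genes tested. Inhba was 59.2, 53.4, 50.4 and 139 CPM in the unamputated, 12, 17 and 28 dpa libraries, and the 28 dpa library stood apart from the other 3. Its log2 ratio was 1.22 (1.11 to 1.33). Of the 831 unamputated Inhba UMIs, 164 came from 1 cell, and without the highest cell of each library the 28 dpa ratio was 1.496 on the log2 scale.

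Ltbp2 was 36.0, 66.04, 46.9 and 115 CPM, highest at 28 dpa and second at 12 dpa, with a log2 ratio of 1.65 (1.51 to 1.78) at 28 dpa. Tgfb3 was 96.6, 84.1, 89.4 and 45.8 CPM, the 28 dpa library being lowest and the other 3 close together. Its log2 ratio was -1.06 (-1.18 to -0.94), close to the rule, and it passed in 8 of 15 alternatives, with -0.78 when no doublets were removed. Among male-called cells alone, where the 12 dpa library drops out, the 28 dpa ratios were 1.39 for Inhba, 1.73 for Ltbp2 and -1.16 for Tgfb3. With every cell thinned to 2000 UMIs they were 0.95, 1.13 and -0.90, so the calls of Inhba and Tgfb3 ended there while their directions stayed.

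No receptor gene among the members was called in fibroblast-like cells. Tgfbr2 was 344, 309, 335 and 365 CPM, and its largest distance from the unamputated level was 1.11-fold, at 12 dpa. Tgfbr1 was 82.3, 55.8, 79.1 and 64.2 CPM, with the unamputated and 17 dpa libraries higher than the other pair. Tgfbr3 at 28 dpa was 1.95-fold below the unamputated level (1.89 to 2.01), the nearest of the receptors to the rule without passing it.

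**Figure D2:**
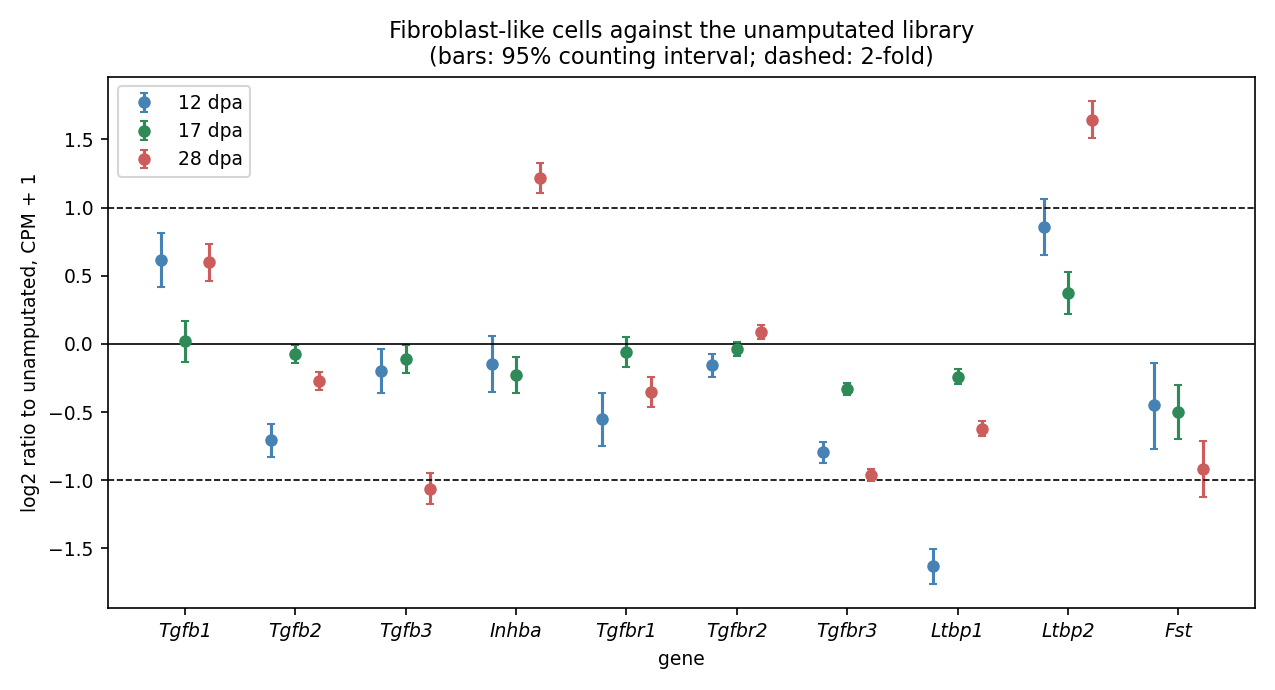
Log2 ratio of CPM + 1 at 12, 17 and 28 dpa to the unamputated library in fibroblast-like cells for each of the 10 genes, with 95% counting intervals; dashed lines mark 2-fold. Inhba (1.22) and Ltbp2 (1.65) lie above the upper line at 28 dpa, Tgfb3 (-1.06) lies below the lower line at 28 dpa, and Ltbp1 (-1.63) lies below it at 12 dpa.

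At 28 dpa the summed level of 7 suprabasal keratinocyte markers in fibroblast-like cells was 671 CPM, against 170, 238 and 287 CPM in the unamputated, 12 and 17 dpa libraries, and that of the 10 fibroblast markers was 47633 CPM against 65754 to 71923 CPM. The 7 tenocyte markers summed to 288, 406, 234 and 296 CPM, all 7 detected in each library. In suprabasal keratinocyte-like cells themselves Inhba was 1.18 CPM and Ltbp2 1.35 CPM at 28 dpa. The part of other cells' RNA in these results was otherwise not tested.

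Clustering at the finer resolution of 2 separated a cluster led by Wnt2, Prelp, Crabp2, Igfbp6 and Mfap5. It was picked out after the Inhba values were seen, and the 10 genes had no part in the clustering. It held 7, 46, 107 and 620 fibroblast-like cells in the unamputated, 12, 17 and 28 dpa libraries, which is 0.992%, 12.8%, 7.34% and 29.0% of that class. At 28 dpa it held 75.5% of the Inhba UMIs and 74.5% of the Ltbp2 UMIs of fibroblast-like cells. Inhba within it was 167 CPM at 17 dpa and 259 CPM at 28 dpa, the 2 libraries with at least 50 such cells.

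Outside that cluster Inhba was 58.2, 45.5, 38.3 and 57.2 CPM in fibroblast-like cells, and the 28 dpa level no longer stood apart. The log2 ratio at 28 dpa outside it was -0.02. Ltbp2 inside was 137 CPM at 17 dpa and 211 CPM at 28 dpa, and outside it was 35.7, 59.9, 37.5 and 49.2 CPM, a 28 dpa log2 ratio of 0.45. Tgfb3 had a ratio of -0.86 outside the cluster, so 0 of the 10 members were called at 28 dpa without those cells. Tgfb1 outside the cluster was 42.9, 57.9, 39.1 and 44.9 CPM, a 28 dpa log2 ratio of 0.065, with 59.15% of its 28 dpa UMIs inside. At 12 dpa, Ltbp1 outside the cluster kept a ratio of -1.65. Ccn2, connective tissue growth factor and a common TGF-beta target, was also higher inside, with 548 CPM against 215 CPM outside at 28 dpa.

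**Figure D3:**
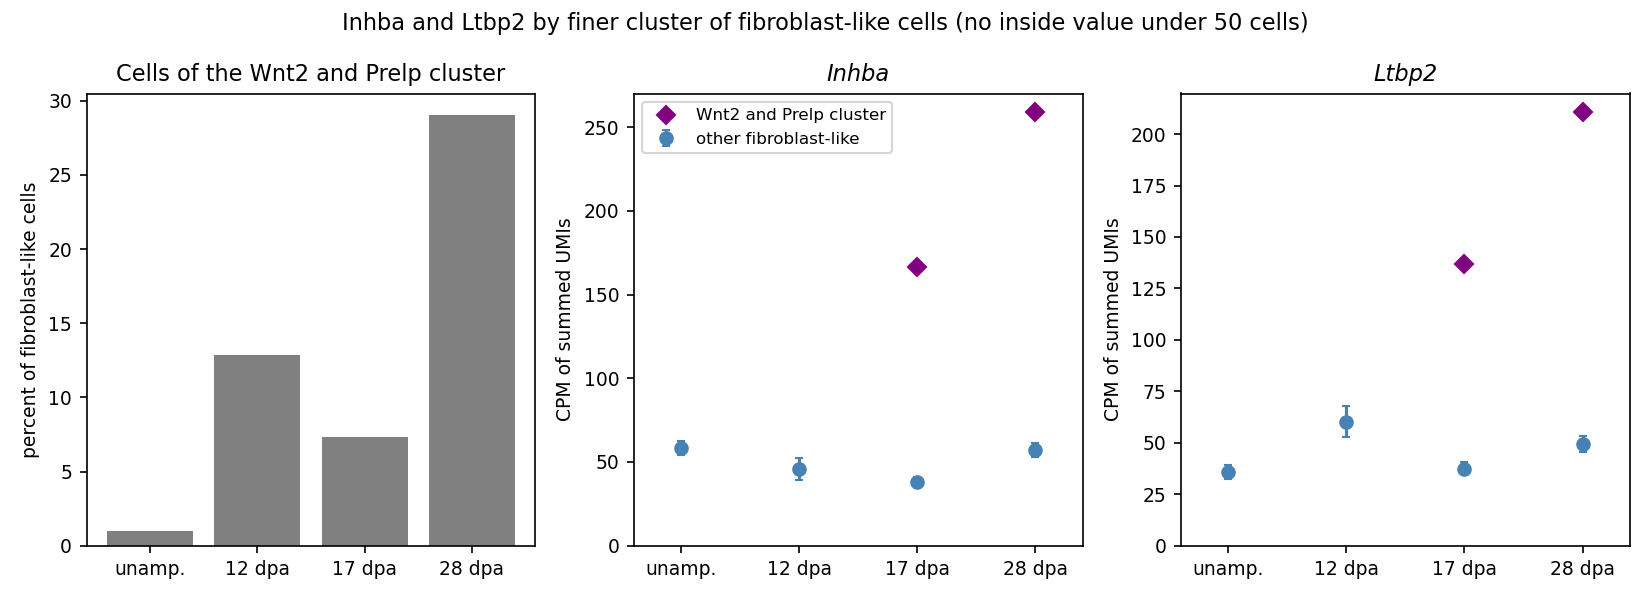
Left, percent of fibroblast-like cells in the finer cluster led by Wnt2 and Prelp in each library; middle and right, CPM of Inhba and Ltbp2 inside that cluster (diamonds, shown where it had at least 50 cells) and in the other fibroblast-like cells (circles, 95% Poisson intervals). The cluster held 29.0% of the class at 28 dpa, and Inhba inside it was 259 CPM against 57.2 CPM outside.

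The 2 main fibroblast-like clusters also differed in members. In the C4b and Gdf10 cluster Inhba was 16.0 CPM unamputated, 16.6 CPM at 17 dpa and 15.1 CPM at 28 dpa, a flat level. In the Pi16 and Clec3b cluster it was 79.2, 54.7, 69.3 and 168 CPM. Ltbp2 in the C4b and Gdf10 cluster was 32.1, 22.3 and 19.4 CPM in the unamputated, 17 and 28 dpa libraries, against 37.8, 60.6 and 137 CPM in the Pi16 and Clec3b cluster. Tgfb2 was the reverse, higher in the C4b and Gdf10 cluster in each of those 3 libraries (336, 261 and 317 CPM against 179, 192 and 159 CPM). Tgfb3 was lowest at 28 dpa in both, 59.8 and 42.5 CPM.

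Tenocyte-like cells, 640, 1719, 291 and 355 in the 4 libraries, are shown beside fibroblast-like cells because they held the highest Inhba, Tgfb3 and Ltbp2 levels. Their Inhba was highest at 17 dpa, 1.64-fold above the unamputated library (1.55 to 1.73), and lowest at 12 dpa, an order of libraries unlike that of fibroblast-like cells. Most of these cells lay in 2 clusters of the resolution 2 clustering, which was run over all cells and does not follow the class borders. The one led by Scx and Fmod held 223, 867, 194 and 347 cells. The one led by Spock3 and Prss35 held 451, 794 and 103 cells and under 50 at 28 dpa, 161 of its cells being fibroblast-like. A smaller cluster led by Mxd3 and Birc5, with 134 tenocyte-like cells, had 50 cells or more at 12 dpa alone, 100 cells with Inhba at 271 CPM. Inhba in the Scx and Fmod cluster was 345, 193, 467 and 281 CPM, so its 28 dpa level lay below the unamputated one there, while the class level lay above. In the Spock3 and Prss35 cluster it was 136, 83.7 and 131 CPM, no higher at 17 dpa than before amputation. Tgfb3 over the whole class at 28 dpa was 1.43-fold below the unamputated level (1.29 to 1.58). Tgfbr3 over the whole class was 307, 225, 145 and 120 CPM, 2.55-fold below the unamputated level at 28 dpa (2.32 to 2.81), but within the Scx and Fmod cluster it was 156, 116, 109 and 116 CPM. The Spock3 and Prss35 cluster held more of it, 440 CPM unamputated, 409 at 12 dpa and 362 at 17 dpa, and had more cells than the Scx and Fmod cluster in the unamputated library but fewer in each later one. Tgfb1 was 69.9, 71.5, 88.3 and 119 CPM and highest at 28 dpa in these cells.

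**Figure D4:**
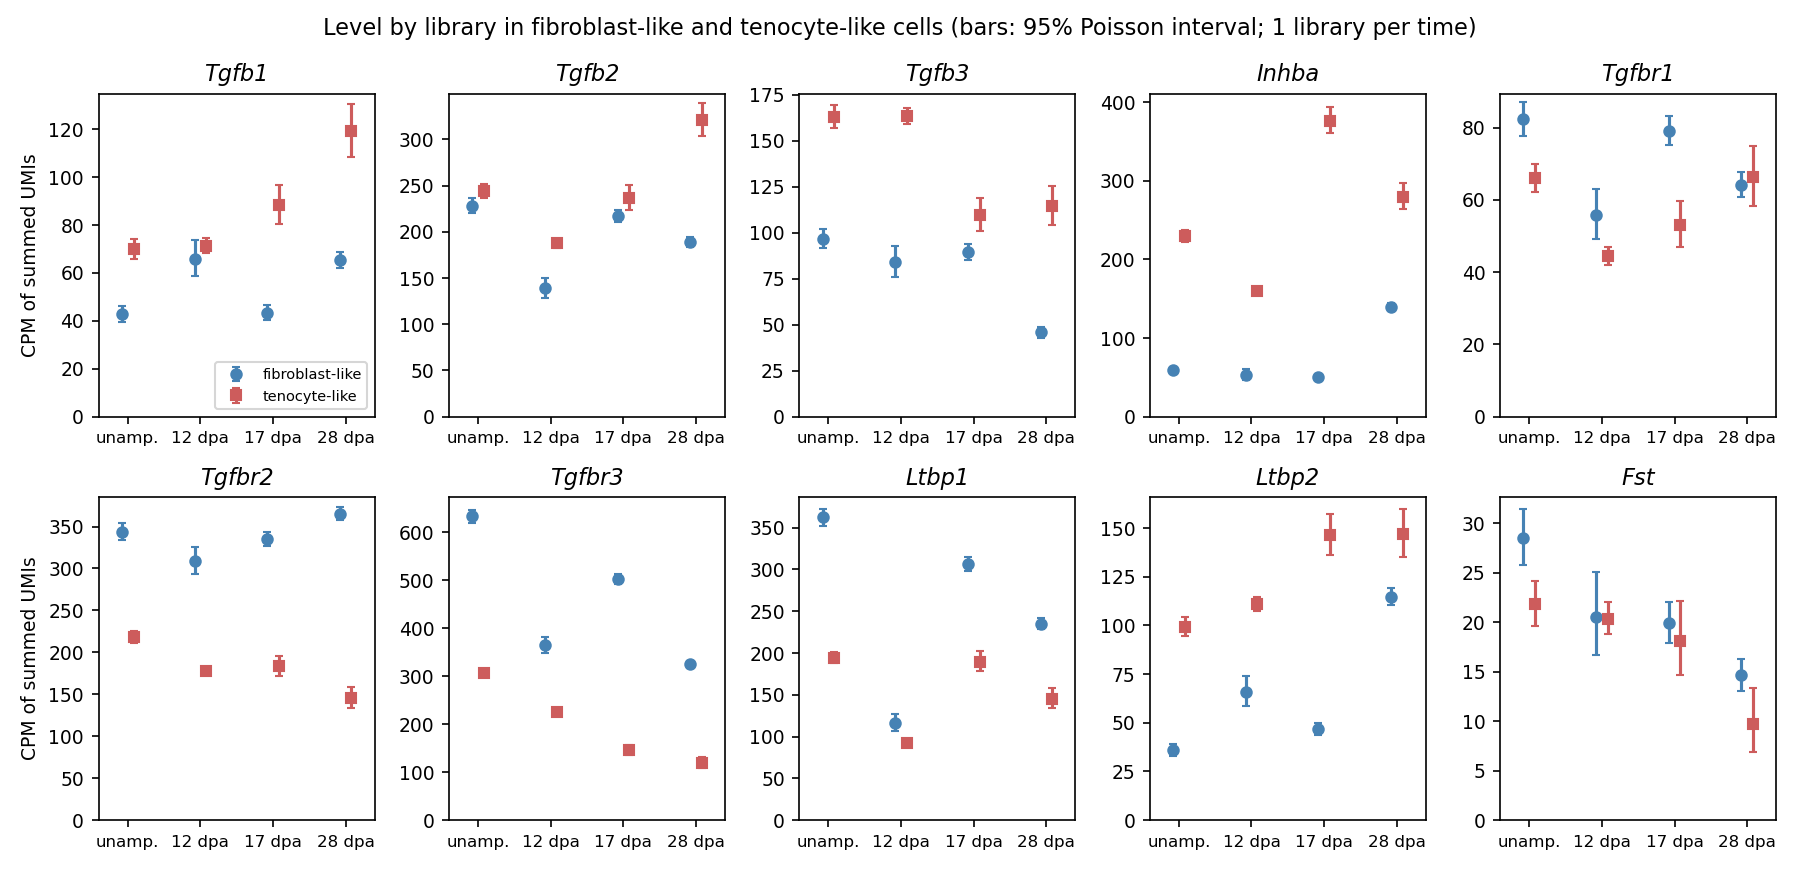
CPM of each of the 10 genes in fibroblast-like (circles) and tenocyte-like cells (squares) in the unamputated, 12, 17 and 28 dpa libraries, with 95% Poisson intervals; each panel has its own axis from 0. Inhba, Tgfb3 and Ltbp2 are higher in tenocyte-like cells in all 4 libraries, and Tgfbr2, Tgfbr3 and Ltbp1 are higher in fibroblast-like cells.

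The cells that supplied a gene's UMIs changed with the make-up of each library. Tenocyte-like cells gave 51.5%, 83.3%, 43.6% and 21.6% of all Inhba UMIs in the unamputated, 12, 17 and 28 dpa libraries, and fibroblast-like cells gave 11.01%, 4.32%, 21.0% and 60.7%. For Ltbp2, tenocyte-like cells gave 49.7%, 87.4%, 27.3% and 15.2%, and fibroblast-like cells 14.96%, 8.09%, 31.5% and 67.2%. At 12 dpa, then, most UMIs of both genes came from tenocyte-like cells, and at 28 dpa most came from fibroblast-like cells. The shares follow cell numbers as well as levels, since the numbers of each class recovered also differed between libraries. With fibroblast-like and tenocyte-like cells pooled, the 28 dpa log2 ratios were 0.07 for Inhba, 0.75 for Ltbp2 and -1.23 for Tgfb3, so Tgfb3 alone of the 3 kept its call.

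Fst UMIs were spread over more classes. Schwann-like cells gave 21.2%, 37.4%, 5.96% and 10.7%, pericyte-like cells 16.2%, 7.06%, 30.1% and 32.8%, and osteoblast-like cells 22.4%, 4.61%, 32.4% and 24.98%. Over all cells of a library together, Fst was 74.9, 35.6, 49.3 and 41.5 CPM, highest before amputation, and Inhba was 52.8, 77.5, 57.8 and 63.9 CPM, highest at 12 dpa. Ltbp2 over all cells was 23.6, 51.2, 35.9 and 47.6 CPM, lowest before amputation.

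**Figure D5:**
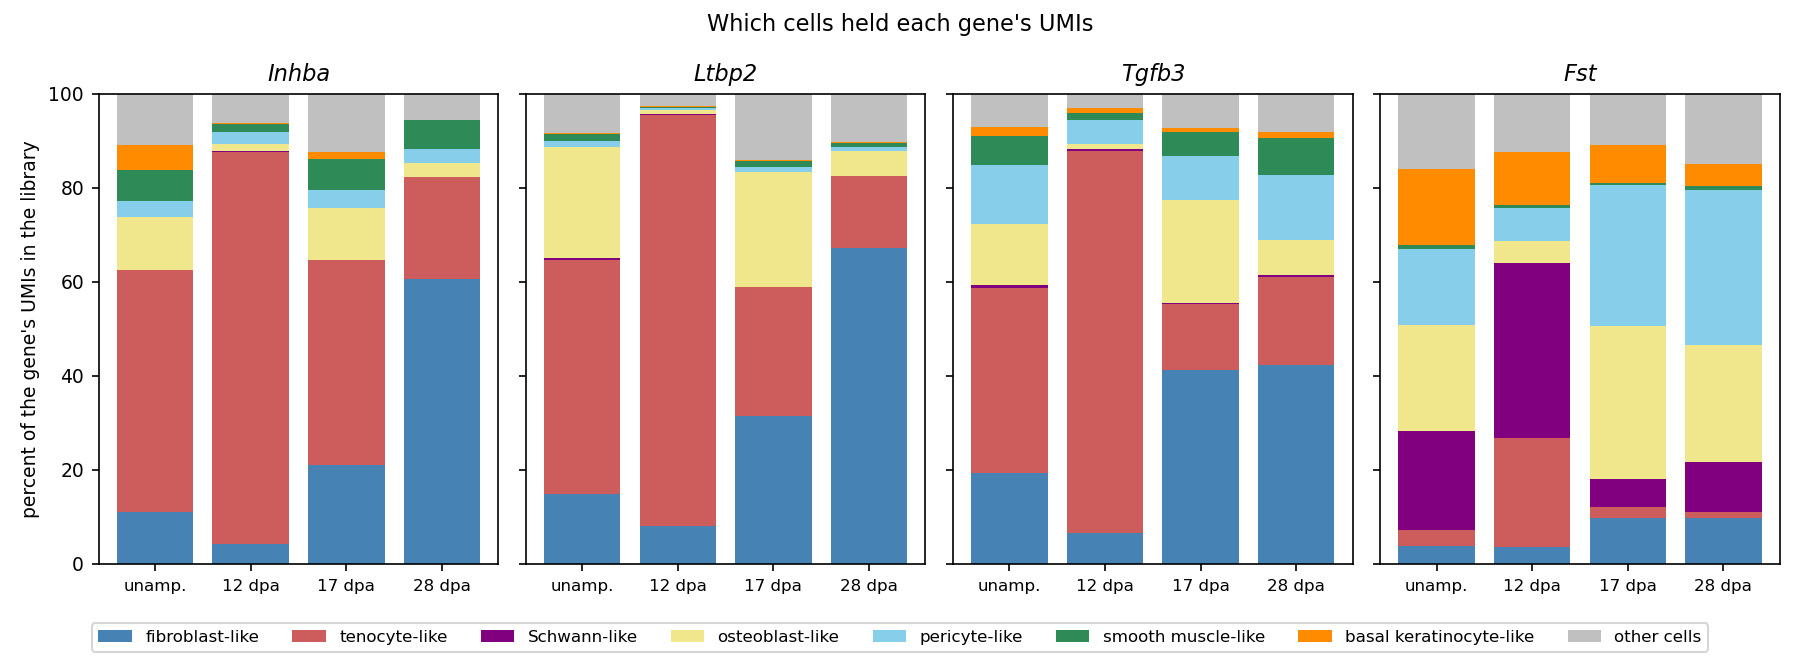
Percent of all UMIs of Inhba, Ltbp2, Tgfb3 and Fst in each library (bars, stacked to 100) that came from each of 7 named cell classes and from all other cells. Tenocyte-like cells gave 83.3% of Inhba UMIs at 12 dpa, and fibroblast-like cells gave 60.7% at 28 dpa.

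Macrophage-like cells numbered 1596, 1080, 772 and 319, and 5 of the 10 members passed the filter on low levels. Of these, 1 was called at 12 dpa, 1 at 17 dpa and 1 at 28 dpa, where 1.5%, 1.19% and 6.21% of 9507 genes were called in either direction. The gene was Inhba each time, with 9.87, 28.2, 21.1 and 3.95 CPM in the unamputated, 12, 17 and 28 dpa libraries, log2 ratios of 1.43, 1.03 and -1.14. These UMIs came from few cells, 43 of 1596, 46 of 1080, 28 of 772 and 9 of 319. The 5 cells with most Inhba held 64.0%, 58.6% and 78.7% of its UMIs in the first 3 libraries, and 10 UMIs were read at 28 dpa. Without the highest cell of each library the ratios were 1.66, 0.86 and -0.90, so the calls at 17 and 28 dpa ended. The call at 12 dpa ended under the stricter cell filter, at a log2 ratio of 0.44, and passed in the other 10 of 11 alternatives. The 10 fibroblast markers summed to 251, 693, 494 and 743 CPM in macrophage-like cells, and the 14 cells with at least 10 Inhba UMIs held at most 5 UMIs of the fibroblast collagen gene Col1a1.

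Tgfbr1 in macrophage-like cells was 362, 232, 271 and 210 CPM, highest in the unamputated library and 1.73-fold below it at 28 dpa (1.58 to 1.89), without passing the rule. It passed in 5 of 12 alternatives, with a log2 ratio of -1.38 under the stricter cell filter against -0.785. Tgfbr2 was 182, 122, 208 and 168 CPM, lowest at 12 dpa. A further Lyve1 and Folr2 cluster with macrophage genes was left unnamed by its leading genes and is not part of this class. It held 95, 50, 563 and 1672 cells, so the cells called macrophage-like are a smaller part of such cells at 28 dpa than before.

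In vascular endothelial-like cells 6 members passed the filter, and 0, 0 and 1 were called at 12, 17 and 28 dpa, where 1.27%, 1.5% and 4.81% of 10271 genes were. The called gene was Ltbp1, with 75.9, 60.7, 42.9 and 16.2 CPM, lowest at 28 dpa. At 28 dpa it was 4.68-fold below the unamputated level (3.52 to 6.36), on 49 UMIs. Both large endothelial clusters were also lowest at 28 dpa but differed at 12 dpa. The one led by Prnd and Gpihbp1 held 85.0, 40.9, 47.8 and 20.9 CPM, and the one led by Selp and Ackr1 held 69.4, 116, 36.3 and 11.3 CPM. With no doublets removed the log2 ratio was -0.85, short of the rule, against -2.16. Tgfbr3, which these cells hold at high levels, was lowest at 12 dpa, 1.87-fold below the unamputated level (1.76 to 1.996).

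Basal keratinocyte-like cells numbered 590, 276, 312 and 698, and 9 members passed the filter. At 12, 17 and 28 dpa 1, 3 and 4 of them were called, all lower, where 2.67%, 1.89% and 4.15% of 10061 genes were called in either direction. Each of these counts includes Inhba, the only member called at 12 dpa, whose unamputated level rests mainly on 1 cell, as given below. Ltbp1 was 110, 135, 50.5 and 28.1 CPM, 2.17-fold lower at 17 dpa (1.88 to 2.51) and 3.90-fold lower at 28 dpa (3.37 to 4.53) than in the unamputated library. Fst was 149, 74.2, 70.7 and 20.03 CPM, and 7.42-fold lower at 28 dpa (6.28 to 8.83), a log2 ratio of -2.83 that was -1.96 under the stricter cell filter. Tgfb3 was 12.2, 15.3, 7.63 and 4.24 CPM, and 2.86-fold lower at 28 dpa (1.94 to 4.34). Its log2 ratio there, -1.33, lay between -2.66 and -0.88 over the alternatives and passed the rule in 9 of 12. For these 3 genes 28 dpa was the lowest library. The calls of Fst and Ltbp1 at 17 dpa also depended on the settings: Fst, at a log2 ratio of -1.06, passed in 6 of 12 alternatives and was -0.20 under the stricter cell filter, and Ltbp1, at -1.10, passed in 8 of 12.

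The summed level of 9 hair follicle keratinocyte markers in the same cells was 379, 359, 240 and 56.0 CPM, also lowest at 28 dpa, and its part in the Ltbp1, Fst and Tgfb3 values was not tested. Inhba in basal keratinocyte-like cells was 34.4, 1.73, 14.4 and 0.398 CPM. That pattern rests on single cells: of 399 unamputated UMIs, 316 came from 1 cell, and 14 of 590 cells had any. Without the highest cell of each library the unamputated level was 7.20 CPM and the log2 ratios at 12, 17 and 28 dpa were -1.87, -0.25 and -2.70.

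Of 34 other genes of the pathway, 28 passed the filter in fibroblast-like cells. At 12 dpa 0 were called higher and 2 lower, at 17 dpa 1 higher and 1 lower, and at 28 dpa 1 higher and 4 lower, beside the percentages of all genes given above. Among the target genes, Ccn2 was 180, 121, 160 and 350 CPM, highest at 28 dpa without passing the rule, and Tgfbi and Pmepa1 were also not called.

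Of the 10 intracellular signal proteins, all past the filter, 0 were called at 17 or 28 dpa. At 12 dpa 1 was called lower, where 4.11% of all genes were. It was Smurf2, a ubiquitin ligase for SMAD proteins and receptors, at 273, 108, 205 and 170 CPM, a log2 ratio of -1.33. Of the 6 other receptors, 4 passed the filter. Among them Acvr2a, a type II receptor for activin, was 111, 57.2, 74.4 and 49.6 CPM. It alone was called, at 28 dpa with -1.14, where 5.95% of all genes were called lower. Of the 4 other ligands, 2 passed the filter, and Gdf11 alone was called, lower at 28 dpa, from 7.63 to 2.54 CPM, near the filter.

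Of the 10 other latency, activation and antagonist genes, 8 passed the filter and 3 were called at any time. Called lower were 1, 1 and 2 at 12, 17 and 28 dpa, where 4.11%, 1.33% and 5.95% of all genes were. Called higher were 0, 1 and 0, where 0.715%, 0.509% and 2.35% of all genes were. Ltbp4, another matrix latency protein, was 350, 244, 749 and 661 CPM and was called higher at 17 dpa with 1.10, while Ltbp1 and Ltbp3 were not called there. Thbs1, thrombospondin-1, which can activate latent TGF-beta, was 225, 198, 100 and 90.4 CPM, called lower at 17 dpa (-1.16) and 28 dpa (-1.31). Itgb8, a subunit of an integrin that activates latent TGF-beta, was 31.1, 11.8, 17.8 and 10.7 CPM, called lower at 12 dpa (-1.33) and 28 dpa (-1.46). Fstl3, a follistatin-like antagonist, was 5.92, 9.22, 6.62 and 12.8 CPM. At 28 dpa its CPM was 2.17-fold above the unamputated level (1.69 to 2.80), and its log2 ratio with the pseudocount, 0.999, missed the rule. Of its 28 dpa UMIs in fibroblast-like cells, 70.3% lay in the Wnt2 and Prelp cluster.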

How the data were processed

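Per the file headers, Cell Ranger wrote the deposited whole-number UMI counts per gene and cell; per the submitters' processing notes the version was 7.1.0 and the build mm10. Depth per library after filtering was 74397419 to 142909162 UMIs. Barcodes under 500 genes or 1000 UMIs, or over 10% mitochondrial UMIs, were dropped, and the highest Scrublet scores were removed at 0.8% per 1000 barcodes (7.05% to 12.8% of barcodes; Scrublet's own threshold marked 0.00951% to 4.30%). Clustering used scanpy 1.11.5 (2000 variable genes without the members and pathway genes, 30 components, 15 neighbours, Leiden resolution 1). Class names came from marker lists for 25 cell types. UMIs were summed per class and library, with exact Poisson intervals for CPM, exact binomial intervals for ratios, and a pseudocount of 1 CPM. The comparison code was tested on simulated data. Of the gene IDs, 32235 were found in GENCODE M21. The members, lists and comparisons were chosen with earlier results of these data known. Named were all 10 members, pathway genes called in fibroblast-like cells, and the 3 most similar genes per member; Ccn2, Fstl3, Tgfbi, Pmepa1 and Ltbp3 were added after their values were seen. Some genes that this rule takes are not reported here. Alternatives covered cell filters, doublets, resolution, pseudocount, thinning, scaling, fold and class definition.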

Additional observations from a re-analysis of the deposited data

Results flagged for a closer look

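Within the 4 classes compared (fibroblast-like, macrophage-like, vascular endothelial-like and basal keratinocyte-like), Inhba differed from the unamputated library past 2-fold in opposite directions between classes of the same library. At 12 dpa its log2 ratio was -3.70 in basal keratinocyte-like cells and 1.43 in macrophage-like cells. At 17 dpa the ratios were -1.20 and 1.03. At 28 dpa they were -4.66 in basal keratinocyte-like cells, 1.22 in fibroblast-like cells and -1.14 in macrophage-like cells. In basal keratinocyte-like cells 316 of the 399 unamputated Inhba UMIs came from 1 cell, and 3 UMIs were read at 28 dpa. Without the highest cell of each library that 28 dpa ratio was -2.70. The 28 dpa ratio in fibroblast-like cells was -0.024 without the Wnt2 and Prelp cluster. Without the highest cell of each library the 17 dpa ratios were -0.25 and 0.86, neither past 2-fold, and the 28 dpa ratio in macrophage-like cells was -0.90. Under the stricter cell filter the 12 dpa ratios were -0.92 and 0.44, also short of 2-fold. The difference between classes was not tested, since each time had 1 library.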

How the results depend on the processing

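No paired analysis was possible because each group had 1 library and all shared the number 1. In fibroblast-like cells 1 member was called at 12 dpa. That count was 2 under the stricter cell filter, at resolution 2 and with the median of all genes set to 0, and 5 at a fold of at least 1.5. At 28 dpa 3 were called, and the count was 1 with cells thinned to 2000 UMIs, 7 at a fold of at least 1.5, 1 with fibroblast-like and tenocyte-like cells together, and 0 without the Wnt2 and Prelp cluster, a setting added after the data were seen. There the Inhba ratio was -0.024. The Tgfb3 call at 28 dpa also ended under the looser and stricter cell filters, no doublet removal, resolution 2 and the median of all genes set to 0, with values from -0.954 to -0.779. Inhba in macrophage-like cells at 28 dpa took the other sign under the looser filter (0.727), the stricter filter (0.083), no doublet removal (2.194) and resolution 2 (0.537), and at 17 dpa under the stricter filter (-0.513) and resolution 2 (-0.232). In basal keratinocyte-like cells at 17 dpa it was 0.847 under the stricter filter. These Inhba values rest on few cells, and the cause was not tested. Ltbp1 at 12 dpa in fibroblast-like cells stayed between -1.71 and -1.04 in all 14 alternatives. Depth limits genes read in few cells, and no setting replaces the missing replicate libraries.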

Other observations

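The cells with most Inhba outside the stroma carried the markers of their own class. In the unamputated library 5 basal keratinocyte-like cells held at least 10 Inhba UMIs, with 316, 20, 18, 17 and 12. The same cells held between 248 and 643 UMIs of Krt5, a basal keratin, and at most 2 of Col1a1, a collagen of fibroblasts and bone cells. Mmp13, a collagenase, had 122, 75, 10, 17 and 0 UMIs in them, and Fst had 37, 12, 197, 33 and 20. The 38-UMI cell of the 17 dpa library differed, with 137 Col1a1 UMIs beside 117 of Krt5. Macrophage-like cells with at least 10 Inhba UMIs numbered 3 in the unamputated library, 8 at 12 dpa and 3 at 17 dpa, and all held Cd68 and Lyz2 with at most 5 Col1a1 UMIs. Among neutrophil-like cells, the cluster led by Camp and Ngp held Inhba at 94.6 CPM unamputated and 87.8 CPM at 17 dpa, and the cluster led by Acod1, Csf3r and Il1b held between 0 and 21.0 CPM over the 4 libraries.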
